A study of Homo sapiens with 4 samples.

Results

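Interferon-stimulated genes are the genes that cells switch on in answer to interferon, and 49 of them were followed here among the 61806 genes of a count table from U251-MG cells. The members were the table's rows with 1 of 49 listed symbols, all of which were found. The list uses no measured value, but it was chosen with earlier results of these data known. U251-MG is an established human glioblastoma line, grown in DMEM with fetal bovine serum, and its genotype is given as WT. RNA was sequenced from 2 libraries of cells infected with a lentiviral COL8A1 overexpression vector (the COL8A1 group) and from 2 libraries of cells infected with a negative control vector (the NC group). Values per library are given in the order replicate 1, replicate 2, NC before COL8A1. Both vectors were pCDH-CMV-MCS-EF1-puro, so all 4 libraries came from lentivirus-infected cells, and uninfected cells are not analysed here. Nothing in the sample labels tells if replicates were separate cultures. A p-value here therefore measures the spread between sequenced libraries alone, and that spread may be technical. In bulk RNA, fewer cells expressing a gene and less RNA per cell cannot be told apart.

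Interferons are secreted proteins that bind receptors on the cell surface. Type I interferon acts through the receptor chains IFNAR1 and IFNAR2 and the kinases JAK1 and TYK2, which activate a complex of STAT proteins with IRF9. This complex binds a promoter element, the interferon-stimulated response element, and the genes it switches on sense viral nucleic acid, block viral entry, degrade RNA or stop translation. Many of these genes are also expressed at a low level in cells that were given no interferon.

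The libraries held 27923796 to 33576228 counts each, and 1 count was worth 0.0297 to 0.036 CPM (the count scaled to a common library size). The targeted gene COL8A1 had 77 and 82 counts in NC replicates 1 and 2 against 4290 and 2259 counts in the COL8A1 replicates, in the direction of the labels (log2 fold change 5.45, SE 0.315, edgeR adjusted p = 0.0681). The glioma and astrocyte genes VIM, CD44, NES and SOX9 stood between 154 and 3144 CPM in every library. GFAP, an astrocyte filament, stood between 0.564 and 2.05 CPM. All 8 genes of that marker list had a log2 fold change above 0 and 4 were higher at an unadjusted edgeR p under 0.05 (against 3.44% of all genes tested). Of 8 leukocyte and microglia markers, AIF1 and CD3E were among those with no count in any library, and the list summed to 5.45 and 6.44 CPM in NC and to 4.03 and 4.75 CPM in COL8A1 libraries, most of it CD68. The plasmacytoid dendritic cell markers CLEC4C, IL3RA and LILRA4 had 0 counts in every library, which allows a level of up to 0.089 to 0.108 CPM (3 counts). The endothelial gene CDH5 was at 60.1 to 78.3 CPM, whereas PECAM1 and VWF stayed at or below 1.27 CPM. The epithelial gene KRT18 was at 88.3 to 120 CPM, whereas EPCAM and CDH1 stayed at or below 0.283 CPM. The part of these marker differences in the results was not tested.

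Interferon itself was scarce in the RNA. Of 22 interferon genes, 15 had no count in any library and 5 more never exceeded 4 counts. IFNB1, the interferon that most nucleated cells can make, had 37 and 70 counts in NC replicates 1 and 2 against 50 and 36 in the COL8A1 replicates (1.64 ± 0.615 and 1.43 ± 0.196 CPM, SD, n = 2). The groups overlapped. IFNL1 had 8, 10, 10 and 8 counts in the same order. CGAS, which senses DNA in the cytosol, had 3 counts in COL8A1 replicate 2 and none elsewhere.

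The members differed widely in level, and levels were compared per kilobase of exon. IFITM3, a membrane protein that blocks virus entry, was highest at 78.3 CPM per kb in NC and 51.1 CPM per kb in COL8A1 cells. BST2, which tethers budding virus to the membrane, was at 44.8 and 43.9 CPM per kb, and ISG15, a ubiquitin-like protein, at 32.9 and 25.7 CPM per kb. The other members stood below these 3, and the median over all 49 in NC was 3.85 CPM per kb. At the low end OAS1 was at 0.260 CPM per kb in NC, CMPK2 at 0.191, IFI44L at 0.119 and MX2 at 0.0468. XAF1, with 0, 5, 0 and 0 counts, and IRF7, with 12, 2, 0 and 4 counts in the same library order, did not pass the low-count filter, so 47 of the 49 members were tested. IRF7 is the factor that amplifies interferon production in immune cells, and XAF1 is a pro-apoptotic protein.

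**Figure D1:**
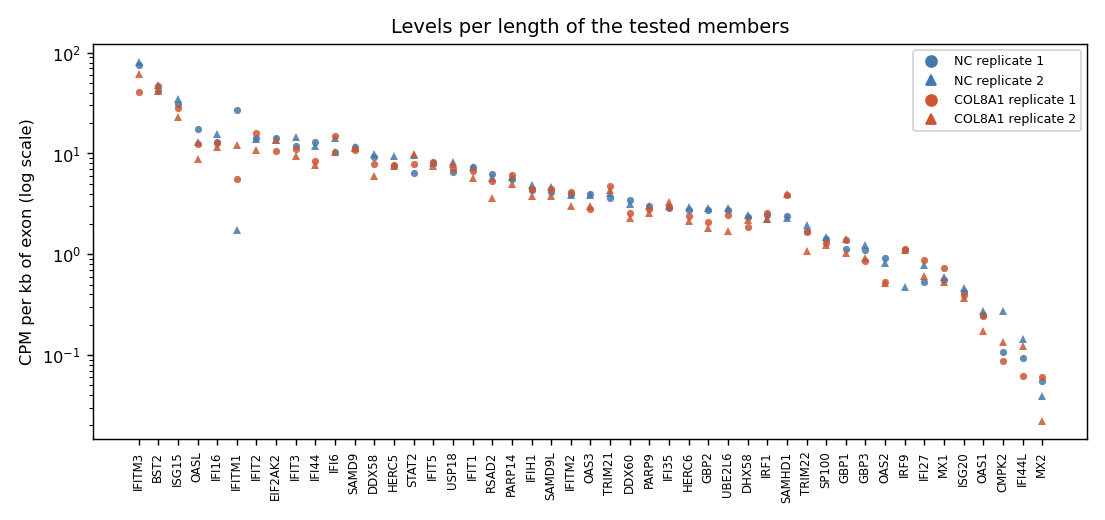
Level of each tested member in CPM per kb of exon (vertical axis, log scale), ordered by the NC mean; circles are replicate 1, triangles replicate 2, blue NC and red COL8A1. IFITM3, BST2 and ISG15 lead, and IFITM1 has the widest gap between the NC libraries.

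The promoters of many members hold the core letters of the response element, and they are shown because the element is what the pathway acts on. RefSeq promoters (GRCh38.p14) were matched for 39 of the 49 members. In the 250 bases before the start, 19 of the 39 (48.7%) held the core of the element (GAAA, any 2 bases, then GAAA again, or the same on the other strand, TTTC, any 2 bases, TTTC), against 3.07% of all 27305 promoters and 2.36% of those of tested genes. The gamma-activated site TTCNNNGAA, the same on both strands, was in 10 of the 39 (25.6%) and in 6.78% of all promoters. Capitals below mark matches to the response element core, overlapping matches merged, with up to 25 bases on each side and nothing past the start. The first 5 belong to members among the 10 smallest p-values and the last 3 to the IFIT family. Of the other members among those 10, SAMHD1, DDX58 and HERC6 had a matched promoter without the core in this window, and OAS2 and GBP2 were not matched. The windows are chr1:78649746-78649788 plus strand (IFI44), chr12:112938306-112938473 plus (OAS3), chr4:168318771-168318865 minus (DDX60), chr11:320861-320937 minus (IFITM3), chr1:1013359-1013424 plus (ISG15), chr10:89392482-89392554 plus (IFIT1), chr10:89327816-89327909 plus (IFIT3) and chr10:89414498-89414567 plus (IFIT5).
IFI44: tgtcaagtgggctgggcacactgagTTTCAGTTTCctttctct
OAS3: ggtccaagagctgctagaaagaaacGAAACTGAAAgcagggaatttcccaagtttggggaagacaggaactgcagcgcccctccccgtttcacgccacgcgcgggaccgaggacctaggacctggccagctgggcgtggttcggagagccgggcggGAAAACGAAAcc
DDX60: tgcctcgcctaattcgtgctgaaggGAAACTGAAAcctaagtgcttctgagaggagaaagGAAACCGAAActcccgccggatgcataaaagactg
IFITM3: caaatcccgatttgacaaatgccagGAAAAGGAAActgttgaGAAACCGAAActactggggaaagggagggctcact
ISG15: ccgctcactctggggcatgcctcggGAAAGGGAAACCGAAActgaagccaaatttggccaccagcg
IFIT1: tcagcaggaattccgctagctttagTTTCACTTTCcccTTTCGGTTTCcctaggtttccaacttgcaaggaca
IFIT3: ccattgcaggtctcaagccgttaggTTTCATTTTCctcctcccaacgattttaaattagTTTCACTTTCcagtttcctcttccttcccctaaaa
IFIT5: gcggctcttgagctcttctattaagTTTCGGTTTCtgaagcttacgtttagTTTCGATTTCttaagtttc
The match nearest the start ended 2 bases before it in OAS3, 8 in IFI44, 9 in IFIT5, 25 in IFITM3, 43 in DDX60, 93 in IFIT1, 97 in ISG15 and 112 in IFIT3. The 19 tested members with a match to the core had a median log2 fold change of −0.22 (COL8A1 over NC). The 19 tested members with a promoter but no match in this window had one of −0.20. Of those with a match 17 were below 0 (89.5%, against 49.8% of all genes tested). At an unadjusted edgeR p under 0.05, 4 were lower (21.1%, against 2.63%). In 9 both COL8A1 libraries lay below both NC libraries (47.4%, against 18.6%). Of those without a match the counts were 12 (63.2%), 1 (5.26%) and 9 (47.4%). The summed CPM was 16.3% lower in COL8A1 cells for those with a match (mean 609.5 against 510.1) and 7.41% lower for those without (518.5 against 480.1). Single genes weighed on both sums. IFITM3, which has a match, had a mean of 105.6 against 68.8 CPM. Among those without one, SAMHD1 rose, at 26.6 against 43.8 CPM, and EIF2AK2 fell, at 150.6 against 130.7 CPM. The gap between the 2 percentages therefore cannot be tied to the match. The difference between the sets with and without a match was not tested. A match describes these letters only. A promoter without a match cannot be said to lack the element, because only the exact core in these 250 bases was searched.

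The main comparison asked whether the members' levels differed between COL8A1 and NC cells. Of the 47 tested members 37 had a log2 fold change below 0 (78.7%, against 49.8% of all 17030 genes tested), and their median was −0.21, against 0.001 over all genes. None passed the edgeR threshold (adjusted p under 0.05 over all genes tested), which 0.0117% of all genes passed. At an unadjusted edgeR p under 0.05, 7 members were lower in COL8A1 cells (14.9%, against 2.63% of all genes) and 1 was higher (against 3.44%), 8 in either direction against 6.07% of all genes. The 7 were IFI44, OAS3, GBP2, OAS2, DDX60, IFITM3 and DDX58, and the 1 was SAMHD1. DESeq2 called 2 members (against 1.06% of all genes), IFI44 lower and SAMHD1 higher. The number at an unadjusted p under 0.05 and lower was 4 without NC replicate 1 (against 1.71% of all genes tested in that fit) and 14 without COL8A1 replicate 1 (against 3.76%). It was 5 without NC replicate 2 (against 2.04%) and 5 without COL8A1 replicate 2 (against 4.29%). Without NC replicate 1, 3 members were higher at that p (against 3.21%).

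In 23 members both COL8A1 libraries lay below both NC libraries (48.9%, against 18.6% of all genes tested), and in 2, SAMHD1 and TRIM21, both lay above (against 18.9%). The groups overlapped in the other 22. COL8A1 replicate 2 was the lowest library for 30 of the 47 members (63.8%, against 24.8% of all genes), COL8A1 replicate 1 for 8 (against 27%), NC replicate 1 for 6 (against 25.7%) and NC replicate 2 for 3 (against 22.5%). The highest library was NC replicate 2 for 24 members (51.1%, against 23.2%), COL8A1 replicate 1 for 11 (against 28%), NC replicate 1 for 9 (against 24.5%) and COL8A1 replicate 2 for 3 (against 24.2%). The part of a single library in the results was not tested beyond leaving each one out. The libraries within each group thus differed too. The CPM of all 49 members summed to 1288 and 1322 in NC replicates 1 and 2 and to 1155 and 1117 in COL8A1 replicates 1 and 2, which was 13.0% lower by the means, with no overlap. EIF2AK2 alone made up 9.90% to 13.2% of this sum and IFITM3 4.81% to 8.26%, and without both the sum was 10.7% lower. The median log2 difference between the replicates of a member was 0.13 in NC and 0.24 in COL8A1 cells, against 0.17 and 0.19 over all genes tested.

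**Figure D2:**
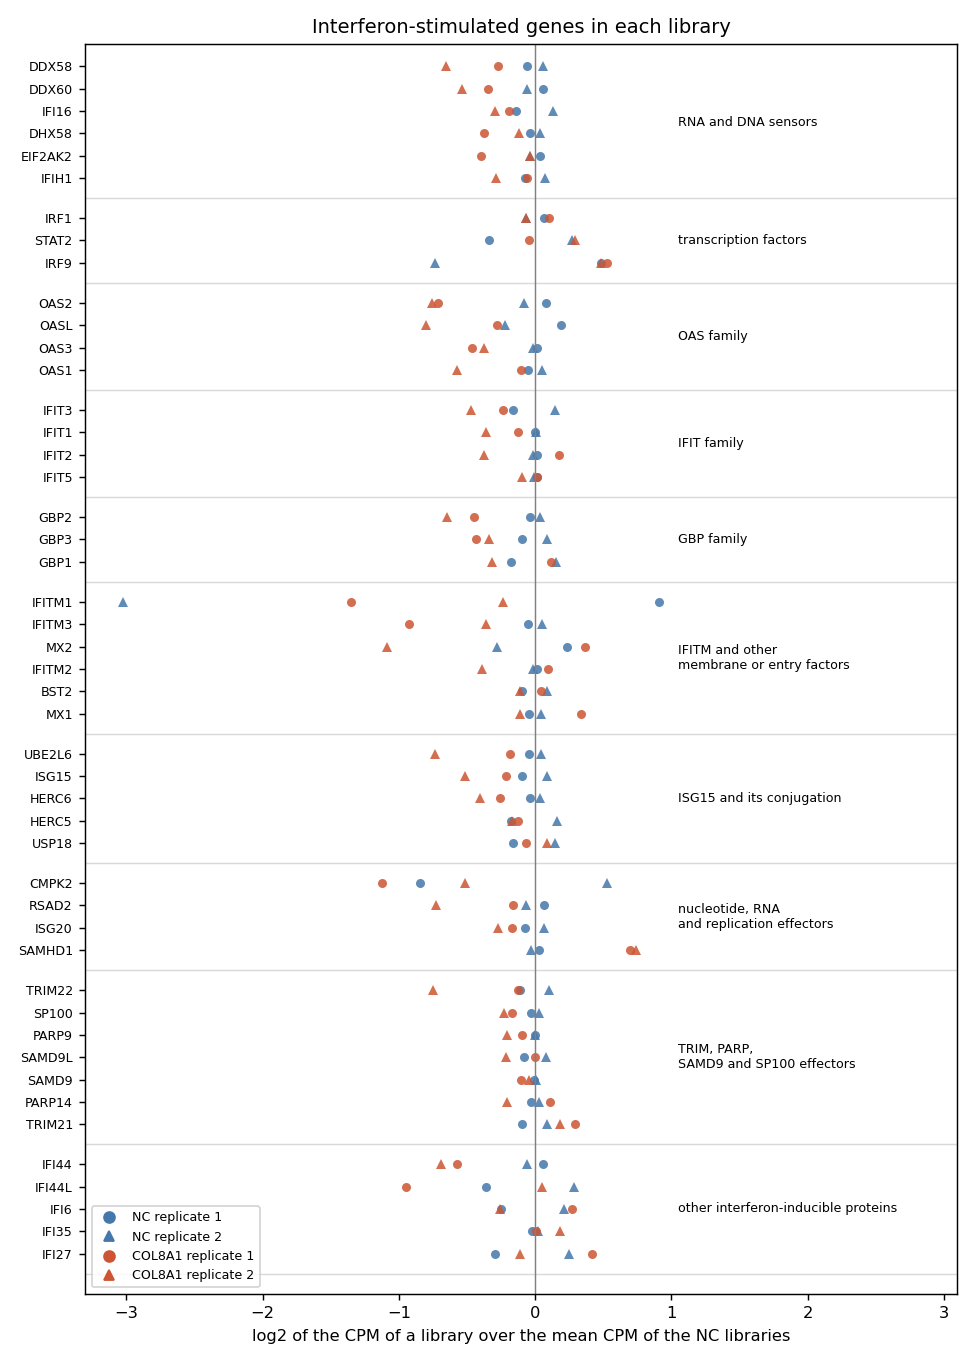
The 47 tested members by role (rows), with the log2 ratio of each library's CPM to the mean CPM of the NC libraries on the horizontal axis; blue is NC, red COL8A1, circles replicate 1 and triangles replicate 2. Most red points lie left of 0, those of COL8A1 replicate 2 farthest left in 30 rows, while SAMHD1 stands on the right.

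**Figure D3:**
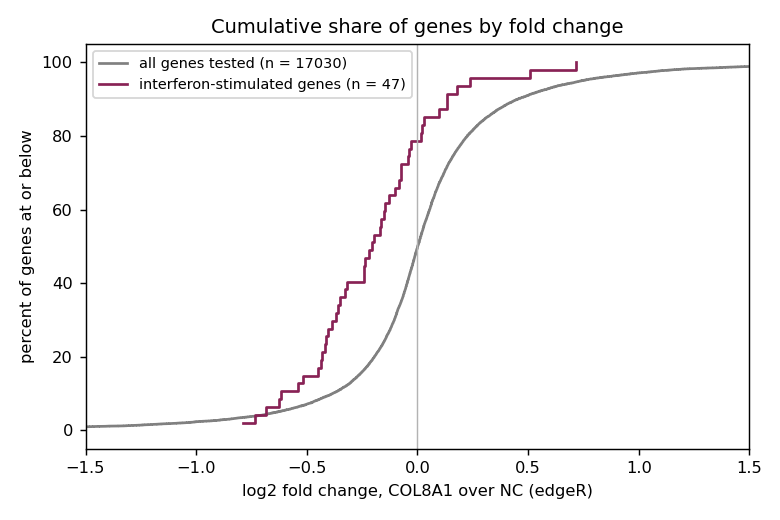
Cumulative percent of genes (vertical axis) at or below each edgeR log2 fold change of COL8A1 over NC (horizontal axis, drawn from −1.5 to 1.5) for the 47 tested members and all 17030 genes tested. At a log2 fold change of 0 the members' curve stands at 78.7% and that of all genes at 49.8%.

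The sensors of viral nucleic acid shared a direction without passing the test. All 6 had a log2 fold change below 0 (median −0.24), 2 were lower by unadjusted p (under 0.05) and in 4 the groups did not overlap, where 49.8%, 2.63% and 18.6% of all genes tested did so in this direction. With the replicate block only DDX60 was under that p. DDX58 (RIG-I, which detects RNA with a 5′ triphosphate; positions on hg38: chromosome 9, 32455705 to 32526324, minus strand) was at 39.8 and 43.0 CPM in NC replicates 1 and 2 and at 34.3 and 26.3 CPM in COL8A1 replicates 1 and 2 (log2 fold change −0.45, SE 0.160, edgeR adjusted p = 0.804). Both COL8A1 libraries lay below both NC libraries, replicate 2 further than replicate 1. DDX60 (a helicase linked to RNA sensing; chromosome 4, 168216293 to 168318807, minus strand), whose promoter is printed above, was at 23.1 and 21.3 CPM in NC and 17.5 and 15.3 CPM in COL8A1 cells (−0.44, SE 0.129, edgeR adjusted p = 0.729).

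The other sensors had fitted values nearer 0. IFIH1 (MDA5, which binds long double-stranded RNA) was at 22.3 and 24.6 CPM in NC and 22.6 and 19.3 CPM in COL8A1 replicates 1 and 2 (log2 fold change −0.17, SE 0.133, adjusted p = 0.866), and the groups overlapped. DHX58 (LGP2, which tunes RIG-I and MDA5) was at 8.97 and 9.41 CPM against 7.08 and 8.46 CPM (−0.24, adjusted p = 0.854), with no overlap. IFI16, a DNA sensor of the nucleus, stood at 68.9 and 83.2 CPM against 66.6 and 61.9 CPM (−0.24, adjusted p = 0.835), again with no overlap. EIF2AK2 (PKR, the kinase that halts translation on double-stranded RNA) had 154 and 147 CPM in NC and 114 and 147 CPM in COL8A1 cells, so that only COL8A1 replicate 1 stood apart (−0.21, adjusted p = 0.852). EIF2AK2 shares exon sequence with GPATCH11 on the opposite strand, which had 1551 to 1655 counts, and reads of such pairs cannot be told apart without the strand setting. In all, 13 members share exon sequence with a gene on the opposite strand and 8 with one on the same strand.

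The transcription factors among the members did not share this direction with all libraries, where the 3 tested were above 0 (median 0.13). With each library left out in turn, 1 or 2 of the factors tested were below 0. Without NC replicate 2 their median was −0.01. STAT2, which pairs with IRF9 in the complex that binds the element, was at 39.0 and 59.5 CPM in NC and 47.7 and 60.3 CPM in COL8A1 replicates 1 and 2 (log2 fold change 0.13, SE 0.243, adjusted p = 0.943). Its NC libraries lay further apart than the group means. IRF1, an interferon-gamma target and activator, was at 19.3 and 17.6 CPM against 19.8 and 17.6 CPM (0.02, 95% interval −0.32 to 0.36), so the groups lay on top of each other. IRF9 had 127, 60, 136 and 115 counts in the same library order (0.51, SE 0.448, adjusted p = 0.874), with NC replicate 2 alone low. IRF9 shares exons with another counted gene on its strand, ENSG00000259529, and their sum of 771, 401, 549 and 297 counts had a log2 fold change of −0.40, in the other direction.

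The OAS family, enzymes that make the 2′-5′-linked adenylates that trigger RNA decay, had the lowest median of the sensor, OAS, IFIT and GBP groups. All 4 members were below 0 (median −0.47), and in all 4 both COL8A1 libraries lay below both NC libraries (18.6% of all genes tested). OAS3 (chromosome 12, 112938352 to 112973249, plus strand) was at 32.5 and 31.9 CPM in NC replicates 1 and 2 against 23.4 and 24.8 CPM in the COL8A1 replicates (log2 fold change −0.42, SE 0.097, edgeR adjusted p = 0.624). The gap between the groups was several times the gap within either. OAS2 (chromosome 12, 112978395 to 113011723, plus strand) was at 5.77 and 5.16 CPM against 3.34 and 3.24 CPM (−0.73, SE 0.208, edgeR adjusted p = 0.709), close in each group.

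OASL and OAS1 were less even. OASL, which lacks the synthase activity and acts with RIG-I, was at 61.1 and 45.8 CPM in NC and 44.0 and 30.7 CPM in COL8A1 replicates 1 and 2 (log2 fold change −0.52, SE 0.235, edgeR adjusted p = 0.835). Its lower NC library and higher COL8A1 library nearly met. OAS1, with 38, 45, 38 and 24 counts, was at 1.24 and 1.34 against 1.20 and 0.864 CPM (−0.32, SE 0.368, adjusted p = 0.899). OAS1, OAS3 and OAS2 lie side by side on chromosome 12 from 112906777 to 113011723, whereas OASL lies apart on the same chromosome from 121019111 to 121039242.

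The IFIT family holds proteins that bind viral RNA lacking the cell's cap methylation and block its translation. All 4 had a fitted log2 fold change below 0 (median −0.16), but none had an unadjusted p under 0.05. In 2 the groups overlapped, and in 2 both COL8A1 libraries lay below both NC libraries (18.6% of all genes tested). IFIT3 was at 31.1 and 38.3 CPM in NC replicates 1 and 2 against 29.5 and 25 CPM in the COL8A1 replicates (−0.35, SE 0.155, edgeR adjusted p = 0.83). IFIT1 was at 33.8 and 34.0 CPM against 31.1 and 26.4 CPM (−0.24, SE 0.120, edgeR adjusted p = 0.835). In both genes the COL8A1 libraries were the lower ones, with replicate 2 lowest.

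IFIT2 and IFIT5 overlapped between the groups. IFIT2, the most highly expressed of the family per kb of exon in NC (14.1 CPM per kb), was at 58.4 and 57.1 CPM in NC and 65.2 and 44.4 CPM in COL8A1 replicates 1 and 2, which enclosed the NC values (log2 fold change −0.08, 95% interval −0.60 to 0.45). IFIT5, whose promoter holds 2 matches to the core of the element, was at 32.6 and 32.1 CPM against 32.7 and 30.2 CPM (−0.04, 95% interval −0.30 to 0.22). Without COL8A1 replicate 2 both had values above 0, and only 2 of the 4 family members stayed below it. The 4 genes lie within one stretch of chromosome 10, IFIT2 from 89283694, IFIT3 from 89327894, IFIT1 from 89392546 and IFIT5 from 89414586 on the plus strand. Their 95% intervals overlapped, and no test compared these neighbours.

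The GBP family, guanylate-binding GTPases that attack the membranes around intracellular pathogens and are classical targets of interferon-gamma, was below 0 in all 3 members (median −0.39). In 2 of the 3 both COL8A1 libraries lay below both NC libraries (18.6% of all genes tested). GBP2 (chromosome 1, 89106132 to 89150456, minus strand) was at 17.2 and 18.1 CPM in NC replicates 1 and 2 against 13.0 and 11.3 CPM in the COL8A1 replicates (log2 fold change −0.54, SE 0.135, edgeR adjusted p = 0.653), with no overlap. GBP3 was at 4.70 and 5.34 CPM against 3.71 and 3.96 CPM (−0.39, SE 0.210, edgeR adjusted p = 0.835), also with no overlap. GBP1 was at 5.67 and 7.12 CPM against 6.92 and 5.15 CPM (−0.08, SE 0.246, adjusted p = 0.972), and its groups crossed. GBP4, a neighbour of these genes outside the members, had 81 and 89 counts in NC and 41 and 30 in COL8A1 cells (2.64 and 2.64 against 1.29 and 1.08 CPM, −1.15, SE 0.286, edgeR adjusted p = 0.653). GBP5, next to it, was at 17.7 and 13.9 CPM against 14.3 and 13.8 CPM (−0.17, adjusted p = 0.885).

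Side by side, the summed CPM was 28.8% lower in COL8A1 cells for the OAS family, 24.3% lower for the GBP family, 16.3% lower for the sensors and 10.4% lower for the IFIT family. The OAS sum was 101 and 84.1 CPM in NC replicates 1 and 2 against 71.9 and 59.6 CPM in the COL8A1 replicates. For the GBP genes the sums were 27.6 and 30.6 against 23.6 and 20.4 CPM, and for the sensors 317 and 328 against 262 and 278 CPM. In these 3 the groups did not overlap. The IFIT sum was 156 and 161 CPM against 158 and 126 CPM, which overlapped. The order of the 4 was not tested, and by medians it changed with the library left out. Without NC replicate 1 the GBP median was −0.48 and the OAS median −0.39. Without COL8A1 replicate 2 the GBP median was −0.44 and the OAS median −0.38. Without COL8A1 replicate 1 the IFIT median was −0.37 and the GBP median −0.34. The medians of these 4 stayed below 0 under each scaling tried and with each library left out, though the IFIT median was −0.06 without COL8A1 replicate 2.

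**Figure D4:**
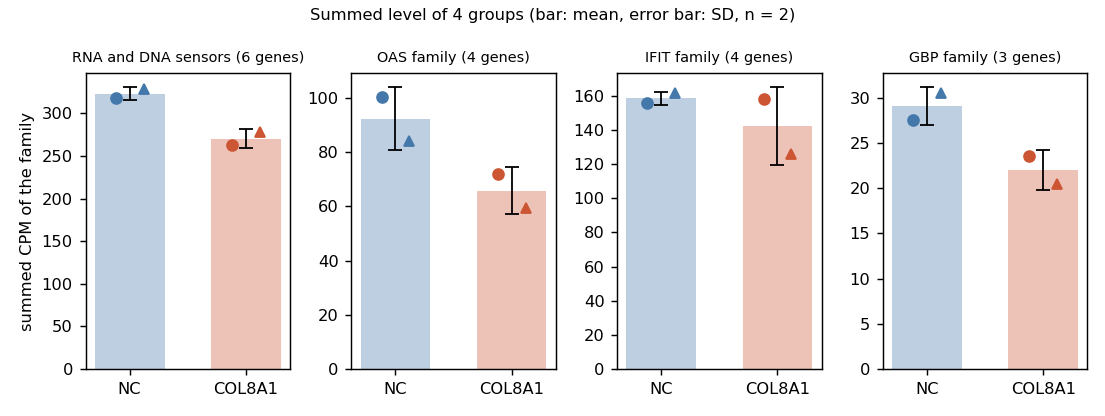
Summed CPM (vertical axis, from 0) of the sensors, OAS, IFIT and GBP groups in NC and COL8A1 cells; bars are means, error bars the SD of 2 libraries, circles replicate 1 and triangles replicate 2. The groups part in the sensor, OAS and GBP panels and overlap in the IFIT panel, where COL8A1 replicate 1 stands at 158 CPM.

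Of the 6 membrane and entry factors 5 had a log2 fold change below 0 (median −0.15), but only 2 of 6 did without COL8A1 replicate 2 (median 0.07). With all libraries 1 was lower at an unadjusted edgeR p under 0.05 (against 2.63% of all genes tested). That was IFITM3 (chromosome 11, 319669 to 327537, minus strand). It was at 102 and 109 CPM in NC replicates 1 and 2 against 55.6 and 82.1 CPM in the COL8A1 replicates (log2 fold change −0.62, SE 0.20, edgeR adjusted p = 0.767). The groups did not overlap, and here COL8A1 replicate 1 was the lower library. IFITM1 had 887 and 64 counts in NC replicates 1 and 2 against 192 and 364 in the COL8A1 replicates, so the NC libraries enclosed the others (−0.69, SE 1.197, adjusted p = 0.941), and its value was 0.30 in limma-voom and 0.16 with the replicate block. IFITM2, which shares exons with IFITM1 on the same strand, had 187, 202, 205 and 128 counts (−0.13, adjusted p = 0.943), and the sum of both, 1074, 266, 397 and 492 counts, kept the wide gap within NC. The IFITM genes are similar in sequence, and reads may be shared between them, which was not tested.

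BST2 was at 46.9 and 53.3 CPM in NC and 51.7 and 46.5 CPM in COL8A1 cells (fitted log2 fold change −0.03, 95% interval −0.34 to 0.28). MX1 and MX2, dynamin-like GTPases that trap viral nucleoproteins and capsids, had values of 0.13 (SE 0.238) and −0.17 (SE 0.660). MX1 was at 4.79 and 5.07 against 6.23 and 4.57 CPM, and MX2 had only 22, 17, 25 and 8 counts. In these 3 genes the groups overlapped.

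ISG15 is attached to other proteins by a chain of enzymes, and 4 of the 5 members of this system had values below 0 (median −0.33). ISG15 itself was at 29 and 33.0 CPM in NC replicates 1 and 2 against 26.7 and 21.7 CPM in the COL8A1 replicates (log2 fold change −0.36, SE 0.148, edgeR adjusted p = 0.817). HERC6, a ligase-family protein, was at 16.1 and 16.9 against 13.8 and 12.5 CPM (−0.33, SE 0.127, edgeR adjusted p = 0.816). UBE2L6, the conjugating enzyme, was at 5.97 and 6.35 against 5.41 and 3.71 CPM (−0.43, adjusted p = 0.835). In these 3 of the 5 genes both COL8A1 libraries lay below both NC libraries (18.6% of all genes tested). HERC5, the main human ISG15 ligase, was at 35.4 and 44.7 against 36.6 and 35.6 CPM (−0.15, adjusted p = 0.885) and overlapped. USP18, which removes ISG15 and also restrains the interferon receptor, was at 14.1 and 17.4 against 15.1 and 16.8 CPM (0.02, 95% interval −0.40 to 0.43).

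SAMHD1, which degrades the building blocks of DNA and so limits reverse transcription, had a log2 fold change above 0, unlike most members. SAMHD1 (chromosome 20, 36889773 to 36951901, minus strand) was at 27.2 and 26.0 CPM in NC replicates 1 and 2 against 43.1 and 44.5 CPM in the COL8A1 replicates. Each group was tight and the groups lay far apart (26.6 ± 0.812 against 43.8 ± 0.988 CPM, SD, n = 2). It had the smallest p of the 47 members (log2 fold change 0.72, SE 0.094), missed the edgeR threshold (adjusted p = 0.305) and passed in DESeq2 (adjusted p = 2.59e-05). TLDC2, which shares exon sequence with it on the opposite strand, had 0, 0, 2 and 0 counts. With each library left out in turn the value ran from 0.68 to 0.75. RSAD2 (viperin, which makes a chain-terminating nucleotide) was at 30.4 and 27.8 CPM against 26.1 and 17.6 CPM (−0.41, SE 0.212, adjusted p = 0.835), without overlap. Its neighbour CMPK2, a mitochondrial nucleotide kinase whose exons overlap those of RSAD2 on the opposite strand, had 14, 40, 12 and 16 counts (−0.79, SE 0.656), and the exonuclease ISG20 had 95, 115, 92 and 75 counts (−0.22, SE 0.237).

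IFI44, a cytoplasmic protein that interferon induces strongly, had the smallest p among the members below 0. IFI44 (chromosome 1, 78649796 to 78664078, plus strand) was at 26.3 and 24.4 CPM in NC replicates 1 and 2 against 17.1 and 15.7 CPM in the COL8A1 replicates, so that the gap between the groups was larger than that within them (log2 fold change −0.63, SE 0.116, edgeR adjusted p = 0.527, DESeq2 adjusted p = 0.0193). Its neighbour and relative IFI44L had only 29, 50, 20 and 35 counts (−0.37, SE 0.517), which overlapped. IFI6, a mitochondrial protein, was at 8.97 and 12.3 against 12.8 and 8.89 CPM (0.03, SE 0.266). The corresponding values of IFI27 and IFI35 were 0.18 (SE 0.341) and 0.10 (SE 0.185), and both overlapped.

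The TRIM, PARP, SAMD9 and SP100 effectors lay near the NC level, with 6 of 7 below 0, a median of −0.10 and no unadjusted p under 0.05. SP100, a scaffold of nuclear bodies, was at 17.7 and 18.5 CPM in NC and 16.1 and 15.4 CPM in COL8A1 cells (fitted log2 fold change −0.20, SE 0.114, adjusted p = 0.835). PARP9 (−0.15, SE 0.102), SAMD9 (−0.07, SE 0.075) and TRIM22 (−0.40, SE 0.259) also had groups that did not overlap. With SP100, 4 of the 7 thus had both COL8A1 libraries below both NC libraries (18.6% of all genes tested). PARP14 (−0.04, SE 0.132) and SAMD9L (−0.10, SE 0.127) overlapped. TRIM21, the cytosolic antibody receptor, was above 0, at 6.95 and 7.89 against 9.09 and 8.43 CPM (0.24, SE 0.168, adjusted p = 0.852). PARP9 shares exon sequence on the opposite strand with its partner DTX3L, which had 873, 1175, 976 and 861 counts.

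Outside the members, 92 further genes of the pathway were listed, of which 66 were tested. None passed the edgeR threshold, 2 were lower and 1 was higher at an unadjusted edgeR p under 0.05, 44 of the 66 were below 0, and the median was −0.05. At that unadjusted p, 3.03% were lower, against 2.63% of all genes tested, and 1.52% were higher, against 3.44%, which was near or under the background. The share below 0 was 66.7%, against 49.8%. In 18 of the 66 both COL8A1 libraries lay below both NC libraries (27.3%, against 18.6%), and in 6 both lay above (9.09%, against 18.9%). DESeq2 called 2 of the 66, SHISA5 higher and TRIM34 lower (against 1.06% of all genes). The receptor chains and Janus kinases had 6 of 9 members below 0 with a median of −0.01. IFNAR1 was at 91.4, 87.2 and 89.1 CPM in NC replicates 1 and 2 and COL8A1 replicate 1 and at 52.9 CPM in COL8A1 replicate 2 (log2 fold change −0.33, SE 0.257, adjusted p = 0.862), so that a single library stood apart, the one in which most members were lowest. IFNAR2 (0.06, SE 0.136) overlapped between the groups, and JAK1 (−0.04, SE 0.068) was at 132 and 126 CPM against 126 and 125 CPM. The adaptor MAVS, through which RIG-I and MDA5 signal, was at 229 and 221 CPM against 238 and 222 CPM (0.03, 95% interval −0.14 to 0.21).

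Of 30 further interferon-induced genes 29 were tested, and 22 of these were below 0 (75.9%, against 78.7% of the members and 49.8% of all genes). Their median was −0.10, less far from 0 than the members' −0.21. Both COL8A1 libraries lay below both NC libraries in 12 (41.4%, against 48.9% of the members and 18.6% of all genes). Both lay above in 4 (13.8%, against 4.26% and 18.9%). The mean summed CPM of the 30 genes was 1755 for NC cells against 1835 for COL8A1 cells, with overlapping groups. These differences from the members were not tested. SHISA5, a membrane protein of the endoplasmic reticulum, was at 62.8 and 60.9 CPM in NC and 117 and 104 CPM in COL8A1 replicates 1 and 2 (log2 fold change 0.84, SE 0.091, edgeR adjusted p = 0.198, DESeq2 adjusted p = 1.52e-08). TRIM34 had 27 and 51 counts in NC and 0 and 2 in COL8A1 cells (edgeR adjusted p = 0.573). It shares exons with the readthrough gene TRIM6-TRIM34, which had 0, 0, 12 and 6 counts, and the sums were 27, 51, 12 and 8. LGALS9, a secreted galectin, was at 8.87 and 8.19 CPM against 6.45 and 6.19 CPM (−0.43, SE 0.165, adjusted p = 0.816), and TRIM56 at 19.9 and 24.1 CPM against 39.0 and 25.9 CPM (0.56, SE 0.234, adjusted p = 0.817), with COL8A1 replicate 1 alone high.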

How the data were processed

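Total RNA from 4 libraries of U251-MG cells (2 NC, 2 COL8A1; groups and replicate numbers from the sample titles) was sequenced. The deposited values are raw read counts per gene, not normalized. Per the submitters' processing notes the tools were HISAT2 2.2.1 and Trim Galore 0.6.9, with featureCounts under the version 0.3, and the build was hg38. Their parameters, among them the strand setting, were not found in the labels or the file header. The table held 61806 genes, and 1 line that was no gene was left out. PCR copies were counted as separate reads. Intervals from a count of 0 cover counting error only.

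The groups were compared by edgeR 4.0.16 under R 4.3.3 (filterByExpr, TMM, quasi-likelihood F-test, group as the only term) on 17030 genes, with Benjamini-Hochberg adjusted p-values over all genes tested and a threshold of 0.05. All p-values are from edgeR unless DESeq2 is named, and fold changes are log2 of COL8A1 over NC. Each SE was taken as the size of the log2 fold change over the root of its F, and 95% intervals use it with 4.64 degrees of freedom. CPM uses TMM-scaled library sizes. Exon lengths, positions and overlaps come from GENCODE release 29, whose gene models may differ from those counted, and promoters from RefSeq. Alternatives were other scalings and filters, the replicate block, DESeq2 1.42.0, limma-voom (limma 3.58.1), sums over overlapping genes, and each library left out. The script was tested on simulated data with known folds, which does not measure its power for the smaller folds of these members.

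The members and lists were chosen with earlier results of these data known. Values per library are given for the 10 members with the smallest p, for all tested members of the sensor, transcription factor, OAS, IFIT, GBP and membrane groups, for the member highest per length, and for the 5 further pathway genes with the smallest p. Other genes named were chosen after their values were seen. Replicates of a group differed by more than sampling noise (chi-square per degree of freedom 31.1 in NC and 33.8 in COL8A1), so each library was counted as 1 sample.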

Additional observations from a re-analysis of the deposited data

How the results depend on the processing

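With 2 libraries a group, a single library could move a result. Leaving out 1 library in turn, the number of members lower at an unadjusted edgeR p under 0.05 ran from 4 to 14 (7 with all libraries), the number higher from 1 to 3 (1 with all) and the members' median log2 fold change from −0.291 to −0.128. Without COL8A1 replicate 2 the median was closest to 0, and without COL8A1 replicate 1 farthest from it. These left-out fits assume that the lone library of a group varies like those of the other group. Among the 35 named genes with such fits, log2 fold changes that crossed 0 ran from −0.121 to 0.063 for BST2, −0.313 to 0.110 for GBP1, −0.378 to 0.170 for IFIT2, −0.098 to 0.011 for IFIT5, −1.601 to 2.329 for IFITM1, −0.391 to 0.090 for IFITM2, −0.070 to 0.100 for IRF1, −0.110 to 0.333 for MX1, −1.072 to 0.361 for MX2 and −0.143 to 0.466 for STAT2. Members outside those 35 crossed 0 too: the ISG15 group had 4 of 5 below 0 with all libraries and 3 to 5 without 1, and the other interferon-inducible proteins had 2 of 5 and then 2 to 4.

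DESeq2 called 2 members, where edgeR called 0 and had 8 at an unadjusted p under 0.05. Over all genes tested the calls were 2 in the main analysis, 180 in DESeq2, 17 with no low-count filter, 3 without NC replicate 2 or without COL8A1 replicate 2, 1 without NC replicate 1 and 0 without COL8A1 replicate 1 (675 lower and 507 higher at an unadjusted p under 0.05 there). IFITM1 had a value of 0.304 in limma-voom, and IRF9 one of −0.403 when summed with the gene that overlaps it. The cause was not tested. Under both other scalings and with no low-count filter all 35 named genes kept their direction and their side of the threshold.

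The replicate numbers were not shown to pair the libraries (correlation of the deviations −0.036 over 17030 genes). With the replicate block 0 members were called, 7 were lower and 1 higher at an unadjusted p under 0.05 (OASL in place of DDX58 among the 7), IFITM1 had a value of 0.160, and the calls over all genes went from 2 to 1.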
